A study of Solanum lycopersicum with 12 samples.

Results

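The genes described here are those whose transcripts were at least 1 unit higher at maturity than at color break in a red tomato and stayed level between the same stages in a yellow one. They were chosen from the measured values by a rule. On the scale log2(FPKM + 1), averaged over the 3 libraries of a group, a protein-coding gene had to differ by at least 1 between maturity and color break in red and by at most 0.3 in either direction in yellow, and reach 1 FPKM or more in 3 or more of the 12 libraries. FPKM counts fragments per length of transcript and depth of library. The rule found 199 genes, which is 1.26% of the 15781 protein-coding genes that passed the filter on low values, out of 23701 protein-coding genes and 24215 genes in the table. The word rise stands for this difference between means, and fall for its opposite. It chose the genes, as did its absence in yellow, and is given as a description with no test.

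The samples were fruits of tomato (Solanum lycopersicum), with 2 types grown in the study, red tomato No. 20 and yellow tomato No. 19. Red fruit at maturity was taken 55 days after anthesis (flower opening) and red fruit at color break after 40 days, and the yellow fruit was taken at the same ages. The 4 groups had no treatment or transgene named in the labels, and each held 3 libraries. The labels name neither the locus that separates the colors nor the plants behind each replicate. P-values therefore cover the spread between the sequenced samples and no more, and that spread may be technical.

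Tomato fruit ripens under the hormone ethylene and a set of ripening transcription factors, which switch on softening enzymes, aroma pathways and carotenoid synthesis. During the same period chloroplasts turn into chromoplasts, so that photosynthesis genes are switched off while the red carotenoid lycopene accumulates in red fruit. Color break is the point at which the first change of color shows, and a gene that is higher at maturity therefore belongs to the later part of ripening.

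Total counts ran from 50963462 to 60854667 per library. Replicates of a group differed by a chi-square per degree of freedom of 5.36 to 8.65, except in red at maturity, where replicate 1 differed from replicates 2 and 3 by 34.7 and 32.9 and these differed from each other by 12.4. Without replicate 1 of red at maturity the rule finds 219 genes, of which 192 are among the 199. Over all protein-coding genes tested, the median stage difference was 0.14 in red and 0.02 in yellow, and the one in red was 0.01 when libraries were scaled by TMM (a scaling on the bulk of genes), so rises in red should be read against a shift of about that size. The markers of ripening fruit (6 genes) were above 0 in every group, with summed levels of 7689 to 8192 FPKM in red at maturity, 12136 to 12758 FPKM in red at color break, 13064 to 13155 FPKM in yellow at maturity and 12215 to 12490 FPKM in yellow at color break. The 6 did not share a direction in red. Mean FPKM at color break and at maturity was 4418 and 591 for PG2A and 4532 and 3478 for E8. It was 2638 and 2779 for PSY1, 235 and 274 for RIN, 304 and 433 for ACS2, and 337 and 331 for NOR. The summed level of 5 seed markers was 2.64 to 21.6 FPKM in red at maturity, 874 to 929 FPKM in red at color break, 91.4 to 100 FPKM in yellow at maturity and 514 to 558 FPKM in yellow at color break. It was thus lowest in the group in which the 199 genes were highest, and its part in their rise was not tested. The vascular markers stayed at or under 0.225 FPKM, and the 15 markers of cuticle and epidermis summed to 80.7 to 91.7 FPKM in red at maturity, 68.3 to 74.7 FPKM in red at color break, 45.3 to 46.0 FPKM in yellow at maturity and 76.9 to 79.6 FPKM in yellow at color break. None of the seed, vascular, cuticle or ripening markers is among the 199 genes.

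Rises of this kind were a minority on both sides. In red 477 genes (3.02%) were higher at maturity by at least 1 and 1165 (7.38%) were lower by at least 1. In yellow 135 genes (0.855%) were higher by at least 1, and 11801 (74.8%) stayed within 0.3. The rule turned round, with a rise in yellow and red level, finds 25 genes, and 58 genes rose by at least 1 in both tomatoes. Among the 199 genes the median rise in red was 1.31, with a range of 1.0 to 6.09, and 88 of them lay between 1 and 1.25. Only 22 rose by at least 2 and 12 by at least 3. In yellow their median difference was 0.05. At the threshold on the red rise, Solyc02g080635 (1.0019) and Solyc08g023270 (1.0060) were just inside, and Solyc09g005660 (0.9993) and Solyc07g052990 (0.9984) just outside. At the threshold on yellow, Solyc07g018390 (0.2994) and Solyc09g066100 (0.2961) were just inside, and Solyc12g008350 (0.3006) and Solyc02g084680 (0.3030) just outside.

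**Figure D1:**
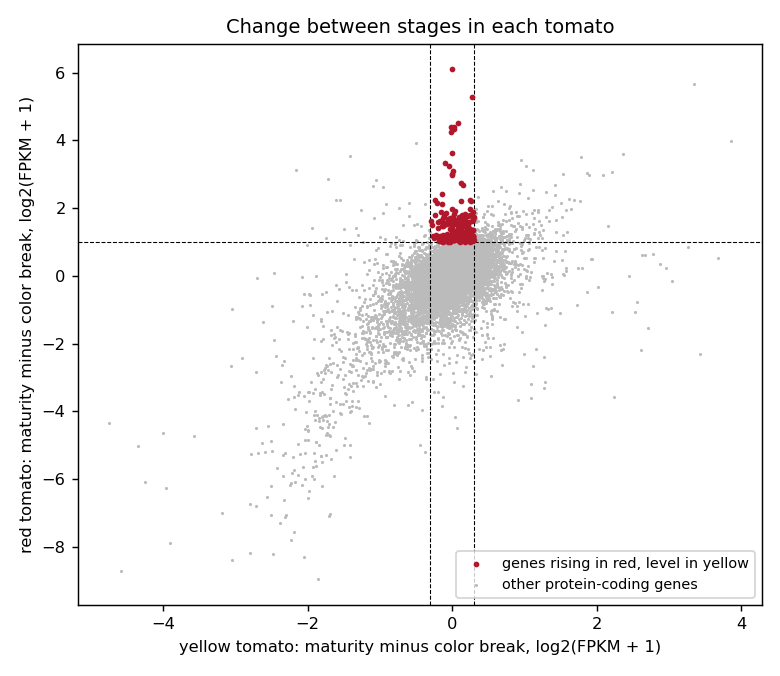
Difference between maturity and color break on the log2(FPKM + 1) scale in red tomato (vertical axis) and yellow tomato (horizontal axis) for every protein-coding gene that passed the filter. Dashed lines mark the rule (1 in red, 0.3 in yellow), dark points are the 199 genes it chose, and most of these lie close to the lower bound while 12 lie at 3 or above.

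The 199 genes covered a wide range of expression. Their median level in red at maturity was 9.87 FPKM, close to the 9.93 FPKM of all genes tested, whereas the median was 2.55 FPKM in red at color break, 3.70 FPKM in yellow at maturity and 3.29 FPKM in yellow at color break, against 9.09 to 9.22 FPKM over all genes in those groups. A mean under 5 FPKM in red at maturity was found for 65 of them, and a mean of at least 100 FPKM for 14 (33.2% and 5.11% of all genes tested). In whole tissue, more cells that express a gene and more RNA per cell cannot be told apart. Most of the genes lack a description: 27 of 199 carry one (22.9% of all genes tested do), 120 carry a gene ontology (GO) term (75.8% of all do), and 79 carry neither.

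The single most abundant transcript among them was Solyc01g099190, on chromosome 1 from 89368523 to 89372043 on the minus strand, which GO annotates as a lipoxygenase of oxylipin synthesis. Lipoxygenases add oxygen to polyunsaturated fatty acids, the first step towards oxylipins. It stood at 11640, 13994 and 14423 FPKM in red at maturity and at 5826, 5895 and 5710 FPKM in red at color break. In yellow it stood at 7669, 7937 and 7862 FPKM at maturity and at 8805, 9246 and 9302 FPKM at color break. All 3 red libraries at maturity thus lay above every other library, and all 3 red libraries at color break lay below every other. The gene was the most abundant by FPKM in all 3 red libraries at maturity, where it took 3.61% to 4.31% of all counts, against 1.79% to 1.84% in red at color break, 2.40% to 2.47% in yellow at maturity and 2.78% to 2.90% in yellow at color break. Its rise in red was 1.19 and its difference in yellow was -0.22. This gene has no description and was named after its values were seen.

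A second lipoxygenase, Solyc05g014790 on chromosome 5, was likewise highest in red at maturity and lowest in red at color break, at a far lower level. It stood at 34.2, 42.1 and 43.6 FPKM in red at maturity and at 16.9, 16.3 and 16.8 FPKM in red at color break, with 20.8, 20.6 and 20.4 FPKM in yellow at maturity and 19.6, 18.9 and 19.7 FPKM in yellow at color break. The groups of red at maturity and red at color break did not overlap with the 6 yellow libraries, one lying above them and the other below. Of 6 lipoxygenase genes that passed the filter, these 2 rose by at least 1 in red and 2 fell by at least 1. Solyc08g014000 averaged 4.61 FPKM in red at maturity, 18 FPKM in red at color break, 12 FPKM in yellow at maturity and 11.3 FPKM in yellow at color break, and so ran the other way. The gene Solyc01g099163, also among the 199, spans 7680 bp of the minus strand next to Solyc01g099190 and overlaps 3 genes on the plus strand, among them the lipoxygenase Solyc01g099180. It stood at 41.1, 55.7 and 42.8 FPKM in red at maturity against 21.5, 22.0 and 21.8 FPKM in red at color break. Whether the counting used strand is not given in the sources used here, so reads of such overlapping genes cannot be told apart.

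The putative DNA binding protein Solyc06g071230 carries a GO term for the synthesis of green leaf volatiles, the short aldehydes and alcohols that another lipoxygenase branch yields. It stood at 63.8, 75.9 and 67.5 FPKM in red at maturity and at 24.2, 23.9 and 24.6 FPKM in red at color break, with 32.1, 34.5 and 33.8 FPKM in yellow at maturity and 31.2, 30.2 and 29.4 FPKM in yellow at color break. Red at maturity was the highest group and red at color break the lowest, without overlap. In the list of lipid metabolism 6 of 483 tested genes belong to the 199 (18 of the 483 rose by at least 1 in red and 69 fell), and besides both lipoxygenases they hold a phospholipase D-type gene, Solyc01g103910, and a fatty-acyl-CoA reductase-type gene, Solyc09g009570, of the kind that makes fatty alcohols for wax. Solyc09g009570 stood at 2.51, 2.42 and 2.32 FPKM in red at maturity and between 0.171 and 0.490 FPKM in each of the other 9 libraries.

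In the list of transcription factors 9 of 532 tested genes (1.69%) belong to the 199, against 1.26% of all genes, 27 rose by at least 1 in red and 49 fell by at least 1. The strongest was Solyc03g006000 on chromosome 3 from 675898 to 680606, a DNA-binding regulator whose GO terms name activation of transcription under heat stress. It stood at 92.3, 116 and 103 FPKM in red at maturity and at 14.6, 14.6 and 14.2 FPKM in red at color break. In yellow it stood at 24.3, 26.5 and 24.0 FPKM at maturity and at 22.6, 23.5 and 22.3 FPKM at color break. Its rise in red was 2.75, against 0.12 in yellow, and red at maturity lay 2.01 above yellow at maturity. None of the 110 tested genes of the list of heat shock proteins and chaperones is among the 199, and in that list 1 gene rose by at least 1 in red and 6 fell.

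Ethylene response factor 1 (Solyc06g065820), a member of the family that carries the ethylene signal to target genes, was low throughout. It stood at 2.41, 3.22 and 3.03 FPKM in red at maturity and at 0.271, 0.256 and 0.423 FPKM in red at color break, with 1.0 to 1.20 FPKM in yellow at maturity and 1.07 to 1.16 FPKM in yellow at color break. The yellow libraries lay between both red groups without overlap. A transcription factor with a dimerization term, Solyc10g008245, had the same order, with 3.10, 3.19 and 2.57 FPKM in red at maturity, 0.286, 0.254 and 0.253 FPKM in red at color break, 0.793 to 1.19 FPKM in yellow at maturity and 0.587 to 0.991 FPKM in yellow at color break. The zinc finger AN1 stress-associated protein Solyc02g087210 differed from these, since it stood at 2.32, 2.15 and 2.62 FPKM in red at maturity and at 0.660, 0.577 and 0.774 FPKM in red at color break, but at 1.73 to 2.24 FPKM in yellow at maturity and 1.88 to 2.25 FPKM in yellow at color break. Its red level at maturity therefore overlapped with the yellow one, and red at color break alone stood apart.

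In the hormone list 3 of 385 tested genes (0.779%) belong to the 199, against 1.26% of all genes. Besides ethylene response factor 1 these are an auxin response factor, Solyc01g103050, which binds promoters of auxin-regulated genes, and an auxin-responsive protein, Solyc09g064530, named for its response to that hormone. Solyc01g103050 stood at 19.7, 22.5 and 22.4 FPKM in red at maturity, against 8.58 to 9.47 FPKM in red at color break, 11.4 FPKM in each library of yellow at maturity and 10.6 to 12 FPKM in yellow at color break. Solyc09g064530 stood at 4.29, 4.82 and 4.62 FPKM in red at maturity, against 1.05 to 1.11 FPKM in red at color break, 1.49 to 1.60 FPKM in yellow at maturity and 1.09 to 1.33 FPKM in yellow at color break. Both genes were highest in red at maturity, without overlap. Solyc09g064530 overlaps a gene on the other strand, Solyc09g064520, whose difference in red was -0.46.

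Genes of chromatin and the cell cycle gave 6 of 583 tested (1.03%). Histone H1 (Solyc09g066100), the linker histone that binds DNA between nucleosomes, stood at 118, 137 and 129 FPKM in red at maturity and at 37.4, 39.4 and 37.0 FPKM in red at color break, with 70.8, 71.9 and 72.3 FPKM in yellow at maturity and 58.1, 58.8 and 57.7 FPKM in yellow at color break. All 4 groups were separate, and yellow also was higher at maturity, by 0.296, which is just inside the rule. Histone H3 (Solyc04g074580), a core histone and one of a family of near-identical genes among which counting can split reads, stood at 682, 545 and 547 FPKM in red at maturity, against 253 to 264 FPKM in red at color break, 381 to 405 FPKM in yellow at maturity and 321 to 361 FPKM in yellow at color break. Of 73 histone-annotated genes tested, 4 rose by at least 1 in red and 1 fell by at least 1. Cyclin-J18 (Solyc04g078500), a partner of cyclin-dependent kinases, stood at 7.25, 7.12 and 6.64 FPKM in red at maturity, against 0.927 to 1.52 FPKM in red at color break, 2.45 to 3.26 FPKM in yellow at maturity and 2.67 to 2.85 FPKM in yellow at color break. Cyclin-D1-1 (Solyc05g006050) reached only 1.63 to 1.96 FPKM in red at maturity and overlaps, on the other strand, the gene Solyc05g006030, whose difference in red was -2.88.

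**Figure D2:**
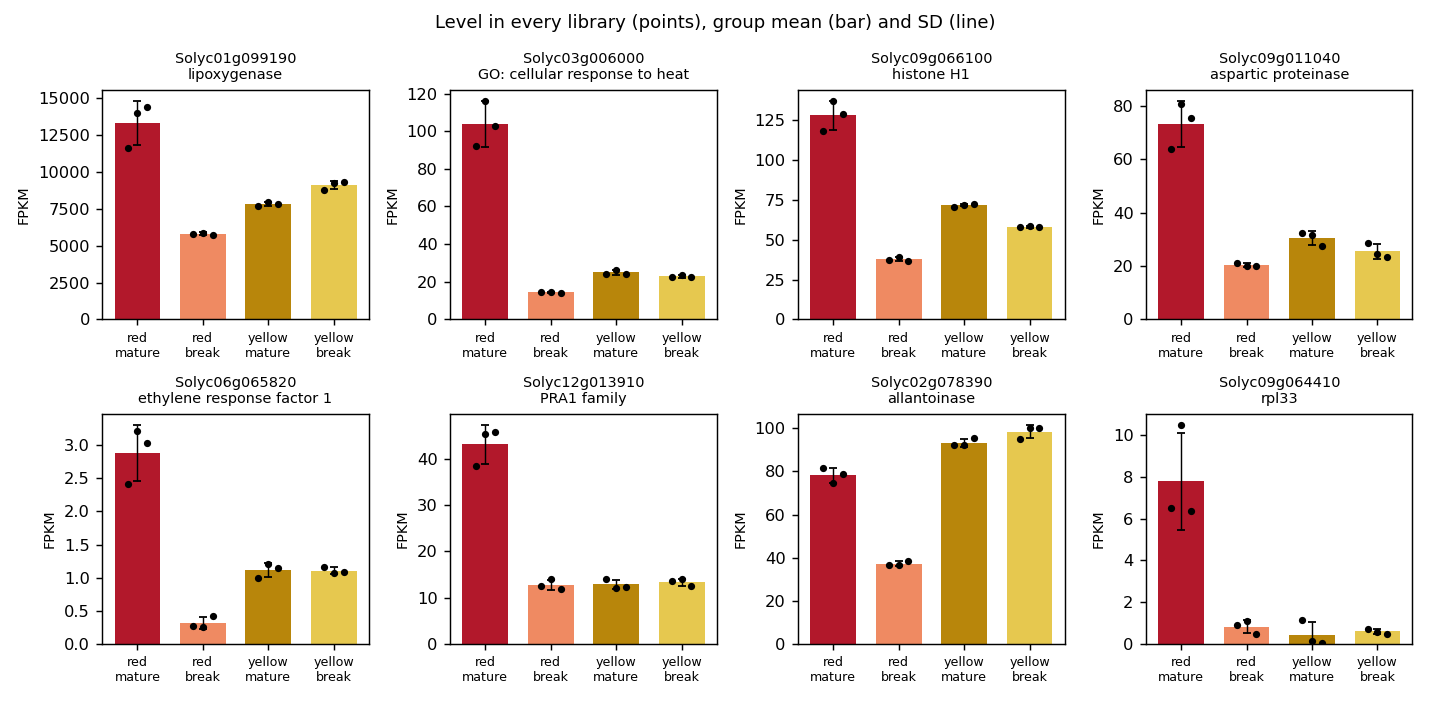
FPKM (vertical axes, linear, starting at 0) of 8 of the genes in the 12 libraries, as points, with the group mean as a bar and the SD as a line (n = 3). Red at maturity is the highest group in 7 panels, and in the panel of the allantoinase-type gene Solyc02g078390 red at color break is low while the other groups are near each other.

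Several enzymes and transport proteins with a description were highest in red at maturity and differed in red at color break. The PRA1 family protein Solyc12g013910, a membrane protein of the vesicle traffic family, stood at 38.4, 45.5 and 45.8 FPKM in red at maturity and between 11.9 and 14 FPKM in all 9 other libraries, so that only red at maturity stood apart. The aspartic proteinase Solyc09g011040, named PCS1 after an Arabidopsis gene, stood at 63.7, 80.8 and 75.3 FPKM in red at maturity, against 19.9 to 21.3 FPKM in red at color break, 27.5 to 32.2 FPKM in yellow at maturity and 23.3 to 28.6 FPKM in yellow at color break. The probable carboxylesterase 18 Solyc10g054780 stood at 31.8, 35.8 and 34.6 FPKM in red at maturity, against 12.2 to 13.1 FPKM in red at color break and 16.6 to 18.6 FPKM over the 6 yellow libraries. In each of these the libraries of red at maturity lay above all others, and in Solyc09g011040 and Solyc10g054780 those of red at color break lay below all others. The potassium transporter Solyc05g005720 stood at 32.4, 39.3 and 39.4 FPKM in red at maturity and between 15.4 and 18.9 FPKM elsewhere, and the proteasome subunit beta Solyc04g024420, a part of the machinery that degrades tagged proteins, stood at 30.5, 34.1 and 30.0 FPKM, against 14 to 16.5 FPKM in red at color break and 16.9 to 22.2 FPKM in yellow.

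In the list of sugar and organic acid metabolism 2 of 225 tested genes (0.889%) belong to the 199, against 1.26% of all genes, one of them the glucose-6-phosphate/phosphate translocator 2, Solyc05g045670, which carries sugar phosphate across the plastid envelope. It stood at 3.39, 4.52 and 3.78 FPKM in red at maturity, against 0.580 to 0.951 FPKM in red at color break, 0.959 to 1.27 FPKM in yellow at maturity and 1.27 to 1.38 FPKM in yellow at color break. In the cell wall list 2 of 219 (0.913%) belong to the 199, while 32 fell by at least 1 in red. They are Solyc02g031960, annotated as a pectate lyase, an enzyme that cuts pectin, and Solyc02g090360, a copper-binding oxidoreductase of the cell wall. Solyc02g031960 stood at 20.0, 18.8 and 13.6 FPKM in red at maturity and between 3.90 and 5.83 FPKM in all other libraries. By contrast polygalacturonase 2A (Solyc10g080210), the main pectin-cutting enzyme of ripe tomato and not among the 199, averaged 591 ± 34.6 FPKM in red at maturity, 4418 ± 163 FPKM in red at color break, 5607 ± 57.0 FPKM in yellow at maturity and 4461 ± 120 FPKM in yellow at color break (SD, n = 3 each).

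Separate steps of ureide breakdown, by which plants recover nitrogen from purines, are among the 199, in different patterns. The ureidoglycine aminohydrolase Solyc08g077840 stood at 26.2, 29.6 and 27.9 FPKM in red at maturity, against 11.5, 12.1 and 10.8 FPKM in red at color break, 17.2 to 17.8 FPKM in yellow at maturity and 14 to 15.6 FPKM in yellow at color break. The allantoinase-type gene Solyc02g078390 stood at 81.5, 74.6 and 78.8 FPKM in red at maturity and at 36.8, 36.5 and 38.4 FPKM in red at color break, but at 92.3 to 95.5 FPKM in yellow at maturity and 95.0 to 100 FPKM in yellow at color break. Red was below yellow at both stages in this gene, by 0.25 at maturity and far more at color break, where the difference was -1.38. The gene model spans 11591 bp, and its GO terms also name mismatch repair of DNA. Allantoate deiminase (Solyc02g068380), which acts between these steps, had a difference of -0.46 in red and -0.04 in yellow and is not among the 199. The pair was picked after its values were seen.

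In the remaining lists the counts were as follows. Transporters and channels gave 21 of 1320 tested (1.59%), cytochrome P450 and oxidoreductases 14 of 756 (1.85%), and protein kinases and phosphatases 6 of 708 (0.847%). Ubiquitin and protein breakdown gave 8 of 862 (0.928%), defence and stress 6 of 484 (1.24%), mitochondrion and respiration 7 of 620 (1.13%), and RNA, ribosome and translation 9 of 1062 (0.847%). No gene came from the 260 glycosyltransferases, the 226 genes of amino acid and nitrogen metabolism or the 26 phenylpropanoid and flavonoid genes. These shares stand against 1.26% of all genes, a gene can be in several lists, and 119 of the 199 are in none. The largest share was that of the list of plastid and photosynthesis genes, with 25 of 914 (2.74%). It was the opposite of that list's main direction, since 28 of the 914 rose by at least 1 in red and 115 fell by at least 1. Of all 15781 genes tested, 477 (3.02%) rose by at least 1 in red, so the list did not stand out in rises as such. A gene with a very low FPKM in yellow at both stages meets the condition on yellow by its low level. The part of this in the share of 2.74% was not tested.

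These 25 genes were highest in red at maturity, as were most of the 199. Their summed level was 239, 236 and 242 FPKM in the libraries of red at maturity, against 28.9 to 30.5 FPKM in red at color break, 28.6 to 29.9 FPKM in yellow at maturity and 26.7 to 29.4 FPKM in yellow at color break. In all 25 the 3 libraries of red at maturity lay above the other 9. This order held in 185 of the 199 genes and in 30.5% of all genes tested, and so is not particular to the list. Solyc07g045460 was within 0.5 of yellow at both stages. Of the 25, 24 averaged under 3 FPKM in each of the other groups, the exception being the potassium transporter Solyc05g005720. In 17 of the 25 no library outside red at maturity reached 1 FPKM, so they passed the filter on low values only through that group and had to differ. Others, among them rpl33, Solyc01g060085 and Solyc09g061460, reached it in too few other libraries to pass without red at maturity. The 25 genes are short: their median span is 507 bp, against 2561 bp for the other genes among the 199. They lie on 10 of 12 chromosomes.

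Some of the 25, such as rpl33 and maturase K, carry the name or description of genes that flowering plants keep in the plastid genome. Others, such as Solyc05g016120, Solyc01g048590 and Solyc01g060085, carry GO terms of plastid functions but no description. The table places every gene on a numbered chromosome of the nucleus. The largest rise was that of Solyc05g016120, annotated with electron transport in photosystem II and photosystem I, on chromosome 5 from 14612729 to 14613849. It stood at 62.1, 58.6 and 61.2 FPKM (2666, 2602 and 2781 counts) in red at maturity and at 1.58, 1.57 and 2.04 FPKM (77, 77 and 87 counts) in red at color break. In yellow it stood at 0.790, 0.887 and 0.995 FPKM at maturity and at 0.636, 1.10 and 0.655 FPKM at color break. Red at maturity was the one group above 2.04 FPKM. Solyc01g048590, with photosystem II terms, stood at 29.2, 31.0 and 34.1 FPKM in red at maturity and at or under 0.884 FPKM in every other library. Solyc01g060085 carries terms for ribulose-bisphosphate carboxylase activity, carbon fixation and the chloroplast. It stood at 26.0, 21.7 and 22.2 FPKM in red at maturity and at or under 1.01 FPKM elsewhere.

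Genes for plastid protein synthesis, protein turnover and electron transport had the same profile. The 50S ribosomal protein L33 (rpl33, Solyc09g064410) stood at 6.54, 10.5 and 6.36 FPKM in red at maturity (82, 135 and 84 counts) and at 1.12 FPKM or less elsewhere. Maturase K (Solyc09g061390), a splicing factor of plastid introns, stood at 2.89, 4.60 and 4.38 FPKM in red at maturity and at 0.991 FPKM or less elsewhere. The proteolytic subunit of the ATP-dependent Clp protease (Solyc09g065790), which degrades plastid proteins, stood at 4.28, 4.04 and 4.57 FPKM in red at maturity and at 0.856 FPKM or less elsewhere. Subunit K of the chloroplast NAD(P)H-quinone oxidoreductase (Solyc06g036210) stood at 2.19, 1.79 and 1.87 FPKM in red at maturity, and the photosystem I assembly protein Ycf4 (Solyc04g039810) at 1.65, 1.29 and 1.30 FPKM. An adjacent gene annotated with acetyl-CoA carboxylase activity, Solyc04g039830, stood at 1.06, 1.61 and 1.95 FPKM. Outside the list, Solyc10g031550 and Solyc10g031560, neighbours on chromosome 10 annotated as RNA polymerase subunits, stood at 1.72 to 3.32 FPKM in red at maturity and at 0.367 FPKM or less elsewhere, and were named after their values were seen.

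Markers of green plastids, a group known to fall as chloroplasts turn into chromoplasts, ran the other way. These 33 markers, of which 1 is among the 199, summed to 158 to 223 FPKM in red at maturity, 956 to 989 FPKM in red at color break, 436 to 450 FPKM in yellow at maturity and 642 to 701 FPKM in yellow at color break. Of 79 tested genes with a photosystem term, 40 fell by at least 1 in red and 10 rose by at least 1, and 9 of these 10 are among the 199. The libraries were made from RNA captured on oligo(dT). How reads from the plastid genome were treated, and whether reads that match more than 1 place were counted, is not given in the sources used here, so reads that these genes share with near-identical copies make their levels uncertain.

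**Figure D3:**
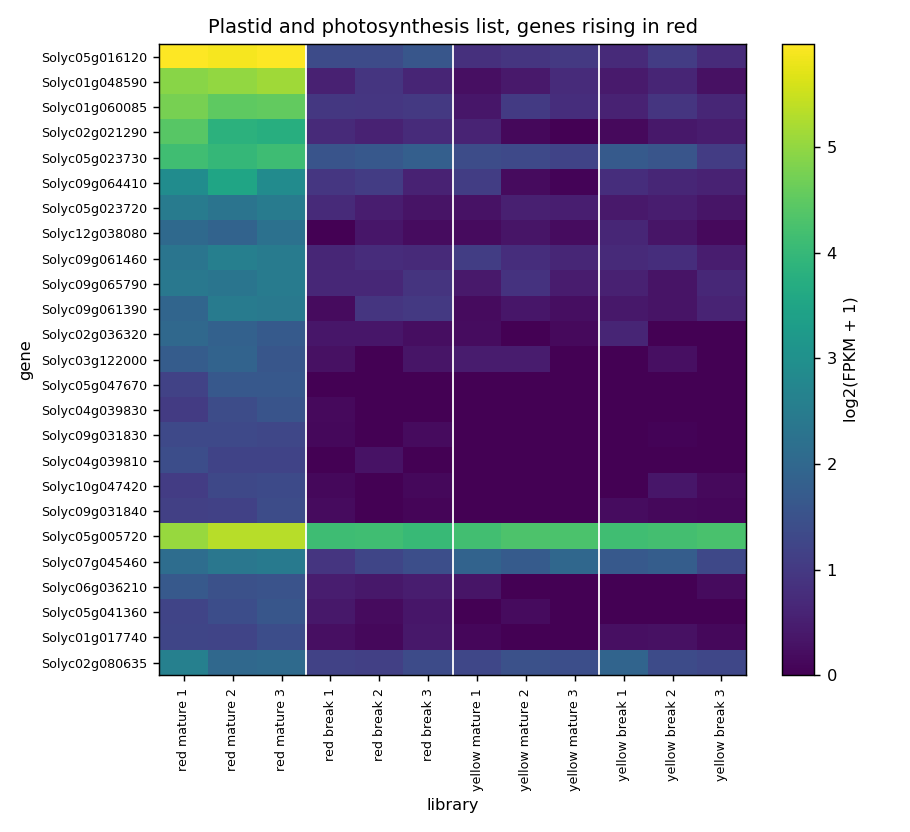
Level on the log2(FPKM + 1) scale, as color, of the 25 genes of the plastid and photosynthesis list that are among the 199 (rows, by size of the rise in red) in the 12 libraries (columns). The 3 columns of red at maturity are brighter than the other 9 in every row, and Solyc05g005720 is the one row that is bright throughout.

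Outside the annotated genes, the largest rise of all was that of Solyc11g039860, a gene of 117 bp without annotation on chromosome 11 from 41861593 to 41861709, named after its values were seen. It stood at 709, 606 and 706 FPKM (5118, 4524 and 5391 counts) in red at maturity and at 9.50, 7.95 and 9.20 FPKM (78, 65 and 66 counts) in red at color break. In yellow it stood at 5.15, 5.66 and 6.10 FPKM at maturity and at 3.83, 9.98 and 4.56 FPKM at color break. Its rise in red was 6.09 and its difference in yellow -0.01. Solyc02g031950, also without annotation, was abundant in every group, with 2307, 2658 and 2399 FPKM in red at maturity, 997, 1024 and 976 FPKM in red at color break, 1797, 1688 and 1720 FPKM in yellow at maturity and 1599, 1539 and 1570 FPKM in yellow at color break. The cytochrome P450-type monooxygenase Solyc10g083400 stood at 545, 704 and 655 FPKM in red at maturity, against 232 to 257 FPKM in red at color break, 341 to 356 FPKM in yellow at maturity and 272 to 293 FPKM in yellow at color break. Both were named after their values were seen, and both were highest in red at maturity without overlap.

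For 7 of the 199 genes no count was recorded in any of the 6 yellow libraries, as for 11 of all genes tested. All 7 passed the filter on low values through red at maturity only, and a gene at 0 in yellow could pass it only through red, so these values are a description. Taking 3 counts over the yellow libraries as the limit that a count of 0 allows, the level in red at maturity was at least 386-fold higher for Solyc09g015320 (188, 166 and 219 counts) and at least 106-fold higher for Solyc05g012253 (35, 65 and 57 counts). Of the 7, 3 (Solyc05g012253, Solyc05g047670 and Solyc11g018700) also had no count in red at color break, where the same limit gives at least 53.2-fold, 36.6-fold and 23.4-fold higher levels in red at maturity. A gene with under about 50 counts per library rests on few molecules, and these limits cover counting error only.

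The difference between tomatoes at each stage describes where red stood relative to yellow before and after the rise. The rule fixes that the difference at maturity exceeds the one at color break, and so neither was tested on its own. At color break the median difference of red minus yellow was -0.16 over the 199 genes and 0.00 over all genes, and at maturity it was 1.0 over the 199 and 0.12 over all. In 144 genes red was within 0.5 of yellow at color break and above it by at least 0.5 at maturity. In 24 genes red was below yellow by at least 0.5 at color break and above it by at least 0.5 at maturity, as for Solyc03g006000, histone H1, ethylene response factor 1 and Solyc01g099190. In 19 genes red was below at color break and within 0.5 at maturity, as for the allantoinase-type gene and Solyc02g031950. In 7 genes red was above at both stages, and in 5 it was within 0.5 at both.

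At maturity red was above yellow by at least 1 in 99 of the 199 genes (2.38% of all genes tested) and below by at least 1 in none (3.56% of all). At color break red was below yellow by at least 1 in 12 genes (1.07% of all) and above in 1 (2.38% of all), which is Solyc03g043855 with 1.87 FPKM in red at color break and 0.144 FPKM in yellow at color break. The count of 12 was 27 with a pseudocount of 0.1 and 7 without the genes with a library listed at 0. With TMM-scaled CPM (counts relative to library size) in place of FPKM, 62 genes were above by at least 1 at maturity. All 3 red libraries lay above all 3 yellow libraries at maturity in 186 of the 199 genes (43.2% of all genes tested) and below them in 2 (21.8%). At color break all 3 red libraries lay below the yellow ones in 89 genes (27.0%) and above them in 22 (29.3%). Both orders held without overlap, red below at color break and above at maturity, in 80 genes (9.31%). Red at maturity lay above all 9 other libraries in 185 genes (30.5%), and above all libraries of red at color break in 196 (46.4%), a count that the rule itself nearly fixes.

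**Figure D4:**
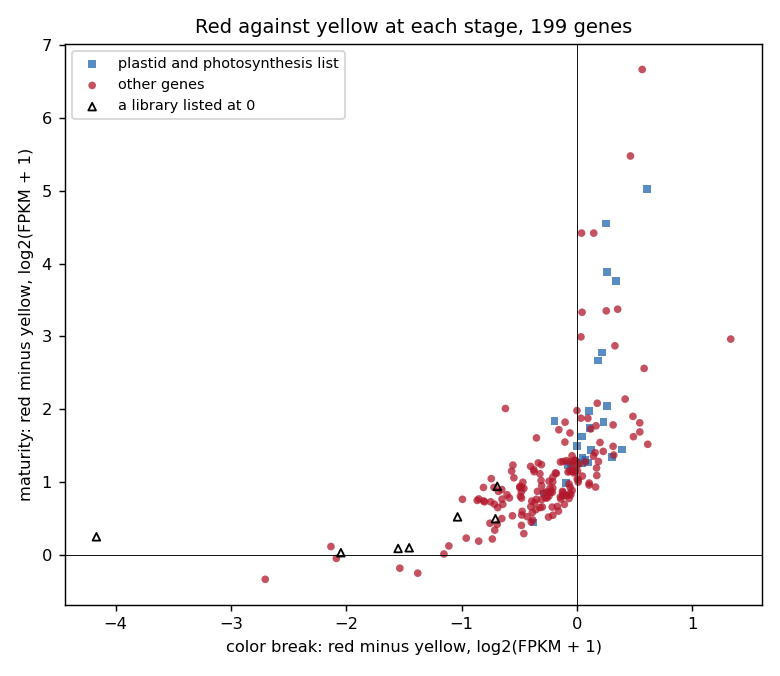
Red minus yellow on the log2(FPKM + 1) scale at color break (horizontal axis) and at maturity (vertical axis) for the 199 genes, with the 25 genes of the plastid list as squares and 7 genes with a library listed at 0 as open triangles. Most genes lie near 0 at color break and at about 1 at maturity, the plastid list reaches 5.03, and a tail on the left holds the genes that were low in red at color break.

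The comparison of red with yellow averaged over both stages is a contrast apart from the stage differences that chose the genes. Its outcome is still tied to them. A gene that meets the rule and is level with yellow at color break is higher in red on average. The comparison was tested with edgeR's quasi-likelihood test over 15974 genes with Benjamini-Hochberg adjustment. A gene was called at an adjusted p under 0.05 and a log2 fold change of at least 0.5 in either direction. Among the 199 genes, 81 were called higher in red (6.70% of all genes tested were) and 9 were called lower in red (9.21% of all), while 109 were not called. Of 144 genes within 0.5 of yellow at color break and at least 0.5 above it at maturity, 73 were called higher and 0 lower. The counts of 81 and 9 are thus not free of the rule. For 51 of the 199 an FPKM of at least 1 was reached in libraries of red at maturity only (0.792% of all genes tested), so that they passed the filter through the group where they are high and had to be higher in red at maturity, though not in the average over both stages. Of them, 39 were called higher and 1, Solyc03g098560, lower, which are given as a description. Of the other 148, 42 (28.4%) were called higher and 8 (5.41%) lower. These 148 still hold genes that reached 1 FPKM in too few other libraries to pass without red at maturity. Among them are rpl33, Solyc01g060085 and Solyc09g061460, so the share of 28.4% is not free of the filter, nor of the rule.

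Among the genes called higher, Solyc05g016120 had a log2 fold change of red over yellow of 3.53 ± 0.12 (SE, adjusted p = 2.07e-11 by edgeR) and Solyc11g039860 of 3.66 ± 0.17 (adjusted p = 5.07e-10). The value for rpl33 was 2.19 ± 0.42. It is given as a description, since this gene passed the filter on low values only with the libraries of red at maturity. The pectate lyase-type gene Solyc02g031960 was higher by 1.02 ± 0.12 (adjusted p = 6.00e-06), the PRA1 family protein Solyc12g013910 by 0.77 ± 0.06 (adjusted p = 9.28e-08) and the regulator Solyc03g006000 by 0.63 ± 0.04 (adjusted p = 3.36e-08). For Solyc03g006000 this average joins opposite differences, since red minus yellow on the log2(FPKM + 1) scale was -0.62 at color break and 2.01 at maturity. Not called were Solyc01g099190 at -0.01 ± 0.03 (adjusted p = 0.840), histone H1 at 0.04 ± 0.03 (adjusted p = 0.295) and ethylene response factor 1 at -0.29 ± 0.15 (adjusted p = 0.120), in which a lower level at color break and a higher one at maturity were averaged.

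In the 9 genes called lower in red the difference lay mainly at color break. The rule nearly fixes this for a gene that is lower in red on average. Solyc03g096160 stood at 5.65, 6.14 and 4.50 FPKM in red at maturity and at 0.496, 0.274 and 0.554 FPKM in red at color break, against 6.55 to 8.03 FPKM in yellow at maturity and 7.59 to 9.13 FPKM in yellow at color break, and its log2 fold change was -2.37 ± 0.13 (SE, adjusted p = 4.23e-09 by edgeR). Solyc02g065260, with a GO term for DNA integration, stood at 259, 321 and 288 FPKM in red at maturity and at 81.6, 80.5 and 84.6 FPKM in red at color break, against 293 to 307 FPKM in yellow at maturity and 346 to 363 FPKM in yellow at color break (-1.14 ± 0.04, adjusted p = 1.69e-11). The nucleosome assembly-type gene Solyc02g021350 stood at 4.76 to 6.22 FPKM in red at maturity and 0.339 to 0.581 FPKM in red at color break, against 4.62 to 5.58 FPKM in yellow (-1.77 ± 0.10, adjusted p = 3.97e-09). In each of these genes red at color break was far below the other 3 groups. The allantoinase-type gene Solyc02g078390 (-0.90 ± 0.03, adjusted p = 3.88e-11) and Solyc02g087210 (-0.72 ± 0.14, adjusted p = 5.33e-04) were also lower, the second of them without a call by limma on log2(FPKM + 1), and Solyc03g096160, Solyc03g096170 and Solyc03g096097 lie in 1 stretch of chromosome 3 between 59392929 and 59488274. Genes without a description in this group were named after their values were seen.

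For 7 of the 199 genes the table lists a library at 0 counts beside a replicate with at least 50, as for 125 of all genes tested (0.792%). In 5 of them a single library of red at color break is at 0 and the other libraries of that group are not. The gene Solyc06g084310 had 664, 585 and 598 counts in red at maturity and 608, 0 and 606 counts in red at color break, with 656, 587 and 567 counts in yellow at maturity and 613, 521 and 575 counts in yellow at color break. Its rise thus rests on the 1 library at 0. Solyc04g074545 had 0, 1200 and 1040 counts in red at color break against 1252 to 1349 counts in red at maturity. Solyc04g014425, whose rise of 4.41 is among the largest, had 0 counts in 6 of the 12 libraries, including all of red at color break and 1 library in each of the other groups. None of the 7 was called for red against yellow over both stages, and without them 7 genes were below yellow by at least 1 at color break instead of 12.

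**Figure D5:**
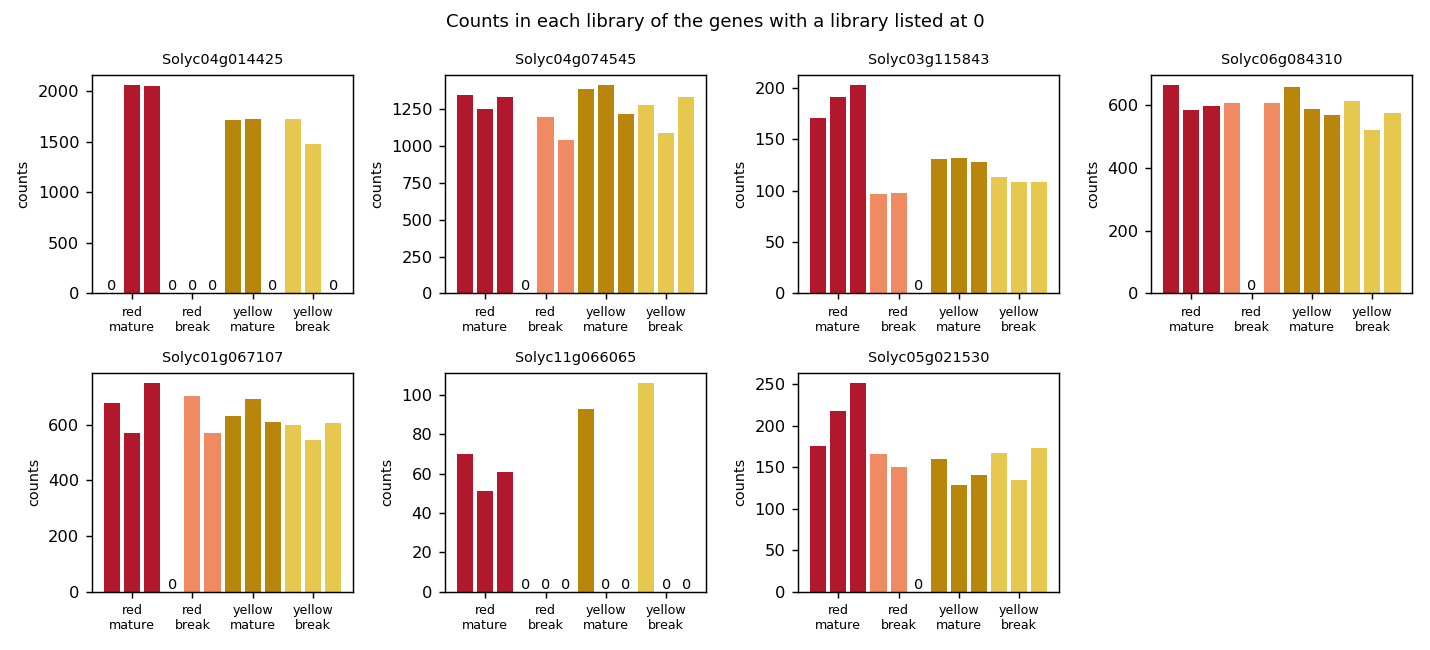
Counts in each of the 12 libraries (bars, linear axis from 0, libraries of a group side by side in the order of their replicate numbers) for the 7 genes with a library listed at 0 beside a replicate with at least 50 counts. A printed 0 marks every library at 0 counts. In 5 panels a single library of red at color break is at 0 while the other libraries of that group are not.

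By position, chromosome 2 held 35 of the 199 genes (2.06% of its genes tested), the largest number of any chromosome, and chromosome 7 held 7 (0.599%). Leaving out genes that did not pass the filter or do not code for protein, 22 pairs of the 199 were direct neighbours, which involved 38 genes (19.1%). The share that genes at large would give was not computed. Among windows of 500 kb that start at one of the 199 genes, the one with the most of them starts at 51494305 on chromosome 2. It was picked for this count and held 10 of the 199 among 51 tested genes, the last of the 10 ending at 51954601. The median difference in red over all 51 was 0.37, against 0.14 over all genes. It includes the 10 that the rule chose for their rise, so it is a description only. Of 347 other tested genes next to one of the 199 in that order, 91 (26.2%) rose by at least 0.5 in red, against 16.0% of all genes tested. Of the 199 genes, 25 overlap another gene of the table, 23 of them on the opposite strand, and levels of such pairs are uncertain.

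At the end of that stretch of chromosome 2, 5 genes close to each other were highest in red at maturity and lowest in red at color break. Solyc02g089497, which lies among them and did not pass the filter, is listed at 0 counts in 11 libraries and at 280 counts in replicate 2 of red at color break. Solyc02g089493 and Solyc02g089520, on the minus strand, carry GO terms for zinc binding and the regulation of flower development, and Solyc02g089490, Solyc02g089495 and Solyc02g089510 lie on the plus strand without a term. Solyc02g089520 stood at 49.8, 46.1 and 53.5 FPKM in red at maturity and at 12.5, 13.4 and 11.9 FPKM in red at color break, with 28.2 to 30.2 FPKM in yellow at maturity and 22.2 to 25 FPKM in yellow at color break. Solyc02g089493 stood at 45.0, 29.1 and 56.3 FPKM in red at maturity and at 13.2, 11.9 and 11.5 FPKM in red at color break, with 20.0 to 23.4 FPKM in yellow at maturity and 20.6 to 24.5 FPKM in yellow at color break. Replicate 2 of red at maturity was the lowest of its group in Solyc02g089490 (27.6 FPKM), Solyc02g089493 (29.1 FPKM) and Solyc02g089495 (29.8 FPKM), so these neighbours also shared the spread between replicates. Another gene with the flower development term, Solyc02g089540, rose by 1.38 in red but by 0.46 in yellow and falls outside the rule, as does Solyc02g089515 with 1.84 in red and 0.54 in yellow. Since Solyc02g089493 and Solyc02g089495, and likewise Solyc02g089510 and Solyc02g089520, overlap on opposite strands, their reads may be shared. The genes of this stretch were picked after their values were seen.

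Within red at maturity the 199 genes did not all follow 1 library. Replicate 1, which stood apart over all genes, was the lowest of the 3 in 90 genes (44.8% of all genes tested), in the middle in 66 (24.8%) and the highest in 43 (30.4%). Replicate 2 was the lowest in 71 (25.2%). The median coefficient of variation between replicates was 10.7% in red at maturity, against 8.54% over all genes tested, and 10.9% in red at color break, against 5.10% over all. The seed markers also differed between these replicates, with 21.6 FPKM in replicate 1 and 2.64 and 3.41 FPKM in replicates 2 and 3.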

How the data were processed

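RNA was captured on oligo(dT), made into strand-marked libraries and read from both ends, per the labels' protocols. Per the submitters' processing notes StringTie 2.1.6, HISAT2 2.2.1, cutadapt 1.9, edgeR and DESeq2 were used. Settings, genome build and annotation: not given in the sources used here. For every gene and library the authors deposited a raw count and an FPKM value. Coordinates are as in that table. Sequences of the genes were not used here.

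The rule was applied to the deposited FPKM with a pseudocount of 1. Red against yellow averaged over both stages was tested on the deposited counts with edgeR 4.0.16 (R 4.3.3), a quasi-likelihood fit with TMM scaling, a mean per group and all 12 libraries, which was checked on simulated data. The fold change of a low gene on the log2(FPKM + 1) scale is understated. Alternatives were other pseudocounts, scalings, filters, thresholds, DESeq2 1.42.0, limma 3.58.1, a replicate block and leaving out each library.

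The genes and the 18 lists, which are words of the description and GO, were chosen with earlier results of these data known. The genes named are described ones with the highest level or rise in red, up to 4 with the largest rise from each list, those next to a threshold and the described extremes of the tested comparison. Others are marked where they occur. No pairing by replicate number was seen: of 18 correlations between same-numbered libraries (-0.10 to 0.09) none was above 0.1. Those between different numbers ran from -0.13 to 0.12. Whether samples share a plant or batch is not given in the labels.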

Additional observations from a re-analysis of the deposited data

Results flagged for a closer look

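In 80 of the 199 genes all 3 red libraries lay below all 3 yellow libraries at color break and above them at maturity, so that the tomatoes changed places without overlap, which was so for 9.31% of all genes tested. The difference between the stages was not tested, since the choice of the genes on a rise in red alone favors this order.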

How the results depend on the processing

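The number of genes that meet the rule moved most with its own settings. It was 312 with a pseudocount of 0.1 (152 shared with the 199), 127 with an FPKM of at least 5 in 3 libraries and 72 with a rise of at least 1.5, while rescaling FPKM to a fixed total gave 240 (198 shared) and TMM-scaled CPM gave 152 (124 shared). Taken relative to the median of all genes tested, a choice made after seeing the data, it was 136 (133 shared). Genes with red below yellow by at least 1 at color break numbered 27 with a pseudocount of 0.1 and 7 without genes with a library listed at 0 (added after seeing the data), against 12. Genes with red above yellow by at least 1 at maturity numbered 62 with TMM-scaled CPM, against 99. Leaving out 1 library at a time gave 188 to 219 genes under the rule, of which 180 to 193 were shared, 11 to 14 below yellow at color break, 95 to 108 above yellow at maturity, 77 to 83 called higher and 9 to 12 called lower in red over both stages.

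No pairing of the samples by replicate number was seen, and the labels name none. With the number as a replicate block 80 genes were called higher in red over both stages and 9 lower, against 81 and 9. DESeq2 called 84 and 11, and limma on log2(FPKM + 1) called 87 and 6. The rise in red of the 52 named genes moved by more than the spread between replicates in 59 alternatives, stayed within it in 721 and reversed in none. For red against yellow over both stages, 468 alternative fits kept a call and 8 lost it, 5 of these for Solyc03g122000, and none changed sign. Genes near 1 FPKM rest on few counts, which limits what can be said of their level in yellow.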
